A study of Rattus norvegicus with 15 samples.

Results

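The Gadd45 genes and 7 classical targets of the tumour suppressor p53 were followed in rat liver, 10 genes in all: Gadd45a, Gadd45b, Gadd45g, Mdm2, Rbm38, Cdkn1a, Bax, Ccng1, Phlda3 and Zmat3. They were located on the array by the gene name of each probe, older names included, among 15180 genes that could be named there, and 14 of the 41012 non-control probes named one of them. Mdm2, Cdkn1a, Bax and Ccng1 had a pair of probes each, and every probe was treated on its own. A probe was tested when its spot was well above background on at least 7 of the 15 arrays. That held for 13 of the 14 member probes and for 23256 probes of the whole array. The exception was the Cdkn1a probe A_44_P515275, which was well above background on 0 arrays of either group. The genes were selected on the fipronil and vehicle values of these same rats, so their differences between the groups are a description and carry no test of their own.

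Liver RNA was measured in female Wistar Crl:WI rats aged 2 to 3 months that weighed 225 to 250 g at the end. In the fipronil group, 8 rats were dosed once a day by mouth with a suspension of this phenylpyrazole insecticide at 3 mg/kg for 14 days. In the vehicle group, 7 rats were dosed for 14 days with the vehicle alone, water with 0.5% (w/v) methylcellulose and 0.01% (w/v) Tween 80. Each rat gave a piece of the large lobe and 1 one-colour Cy3 array, so a replicate is an animal. In a bulk liver sample, fewer cells of a type and less RNA per cell cannot be told apart.

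Gadd45 proteins are small acidic stress sensors that bind the kinase Map3k4, the replication clamp Pcna and the mitotic kinase Cdk1 with its cyclin, and they have been linked to active DNA demethylation. In mouse liver, Gadd45b is an early target of ligands of the nuclear receptor CAR (Nr1i3) and a coactivator of it. The other members belong to the transcriptional programme of p53, in which Mdm2 and Rbm38 feed back on p53 itself, Cdkn1a and Ccng1 act on the cell cycle, and Bax, Phlda3 and Zmat3 act on cell survival and growth.

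The 200 bases before the annotated start of the 3 Gadd45 genes are shown because these close relatives differed in their values below, with those of Mdm2 beside them as a p53 feedback gene. The sequences are those of RefSeq, build GRCr8, on the minus strand in each case: chr7:9430719-9430918 for Gadd45b, chr4:97486800-97486999 for Gadd45a, chr17:13530352-13530551 for Gadd45g and chr7:55200792-55200991 for Mdm2. They run 5′ to 3′ along the gene, and capitals mark, on either strand, the CCAAT box, the E-box CACGTG and the TATA-box letters TATAAA.
Gadd45b: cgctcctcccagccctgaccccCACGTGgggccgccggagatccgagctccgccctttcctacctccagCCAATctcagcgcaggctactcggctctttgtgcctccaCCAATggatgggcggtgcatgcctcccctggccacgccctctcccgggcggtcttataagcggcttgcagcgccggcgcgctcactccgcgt
Gadd45a: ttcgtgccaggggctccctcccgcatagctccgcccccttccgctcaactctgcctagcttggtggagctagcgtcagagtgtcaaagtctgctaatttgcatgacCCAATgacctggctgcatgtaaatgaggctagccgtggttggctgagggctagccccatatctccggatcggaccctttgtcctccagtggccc
Gadd45g: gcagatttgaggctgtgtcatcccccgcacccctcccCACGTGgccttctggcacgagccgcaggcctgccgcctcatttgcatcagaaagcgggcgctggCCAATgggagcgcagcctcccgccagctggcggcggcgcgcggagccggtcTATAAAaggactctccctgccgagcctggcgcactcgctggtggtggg
Mdm2: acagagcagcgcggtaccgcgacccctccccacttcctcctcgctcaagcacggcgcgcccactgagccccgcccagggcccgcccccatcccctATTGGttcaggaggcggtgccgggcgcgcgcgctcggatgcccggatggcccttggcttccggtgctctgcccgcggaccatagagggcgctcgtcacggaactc

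The CCAAT box, bound by NF-Y, stood at −131 to −127 and −92 to −88 from the start of Gadd45b, at −94 to −90 in Gadd45a and at −99 to −95 in Gadd45g. In Mdm2 it lay on the other strand, at −105 to −101, and reads as its reverse complement above. In windows of 300 bases, 250 before and 50 after the start, 5 of the 8 members in the promoter table held the CCAAT box on either strand, against 37.5% of all 33469 promoters. The palindromic E-box CACGTG was present in Gadd45b (−178 to −173) and Gadd45g (−163 to −158) and in 6.42% of all promoters. The TATA-box letters stood in Gadd45g alone among the 8 members (−48 to −43) and in 14.2% of all promoters. Gadd45a also held AGGTCA, a nuclear receptor half-site found in 16.2% of all promoters, on the other strand at −90 to −85, where it overlaps CCAAT by its end base. The AP-1 motif TGACTCA was present in Rbm38 alone among the 8 members (−235 to −229) and in 4.63% of all promoters, and Rbm38 also held AGGTCA at −151 to −146 on the other strand. Rbm38 had a pair of annotated starts, which gave it more chances of a match. Which of these starts each Rbm38 position counts from was not recorded. These matches are letters in a window and not mapped binding sites.

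Signal below means log2 of the processed spot intensity divided by the 75th percentile of the non-control probes on that array. A level of one probe is not set against that of another, because probes differ in how well they hybridise. Differences are fipronil minus vehicle on the same log2 scale, with the standard error (SE) of the fit across all tested probes and a 95% interval.

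Gadd45b, the stress sensor, was higher in every fipronil rat than in any vehicle rat. Its probe A_43_P16529 (rn4 chr7:10289049-10289076, minus strand, an annotated span of 28 bases) had a lowest, median and highest signal of 2.16, 2.98 and 3.52 in the 8 fipronil rats, against 0.013, 0.37 and 0.81 in the 7 vehicle rats. The lowest fipronil rat thus lay well over the highest vehicle rat, and the groups did not overlap. The difference was 2.47 (SE 0.19, interval 2.08 to 2.86), a 5.54-fold higher intensity, the 16th largest rise among the tested probes. Within the 4 slides the difference of group means ranged from 2.03 to 2.90.

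The 2 relatives of Gadd45b did not share that pattern. Gadd45a, the member of the family first described as a p53 target, had a signal of 1.80, 2.34 and 2.79 (lowest, median, highest) in fipronil rats, against 2.07, 2.51 and 2.78 in vehicle rats, on probe A_44_P216395 (rn4 chr4:96650454-96650513, minus strand). The groups overlapped almost throughout, and the difference of −0.15 (SE 0.14) had an interval of −0.45 to 0.15. Gadd45g, probe A_44_P365379 (rn4 chr17:19231059-19231118, minus strand), had a signal of 2.41, 3.43 and 4.57 in fipronil rats, against 3.28, 3.95 and 4.35 in vehicle rats. Of the 8 fipronil rats, 7 lay below the vehicle mean, but the highest single value was also a fipronil rat, and the difference of −0.45 (SE 0.26) had an interval of −1.0 to 0.094.

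**Figure D1:**
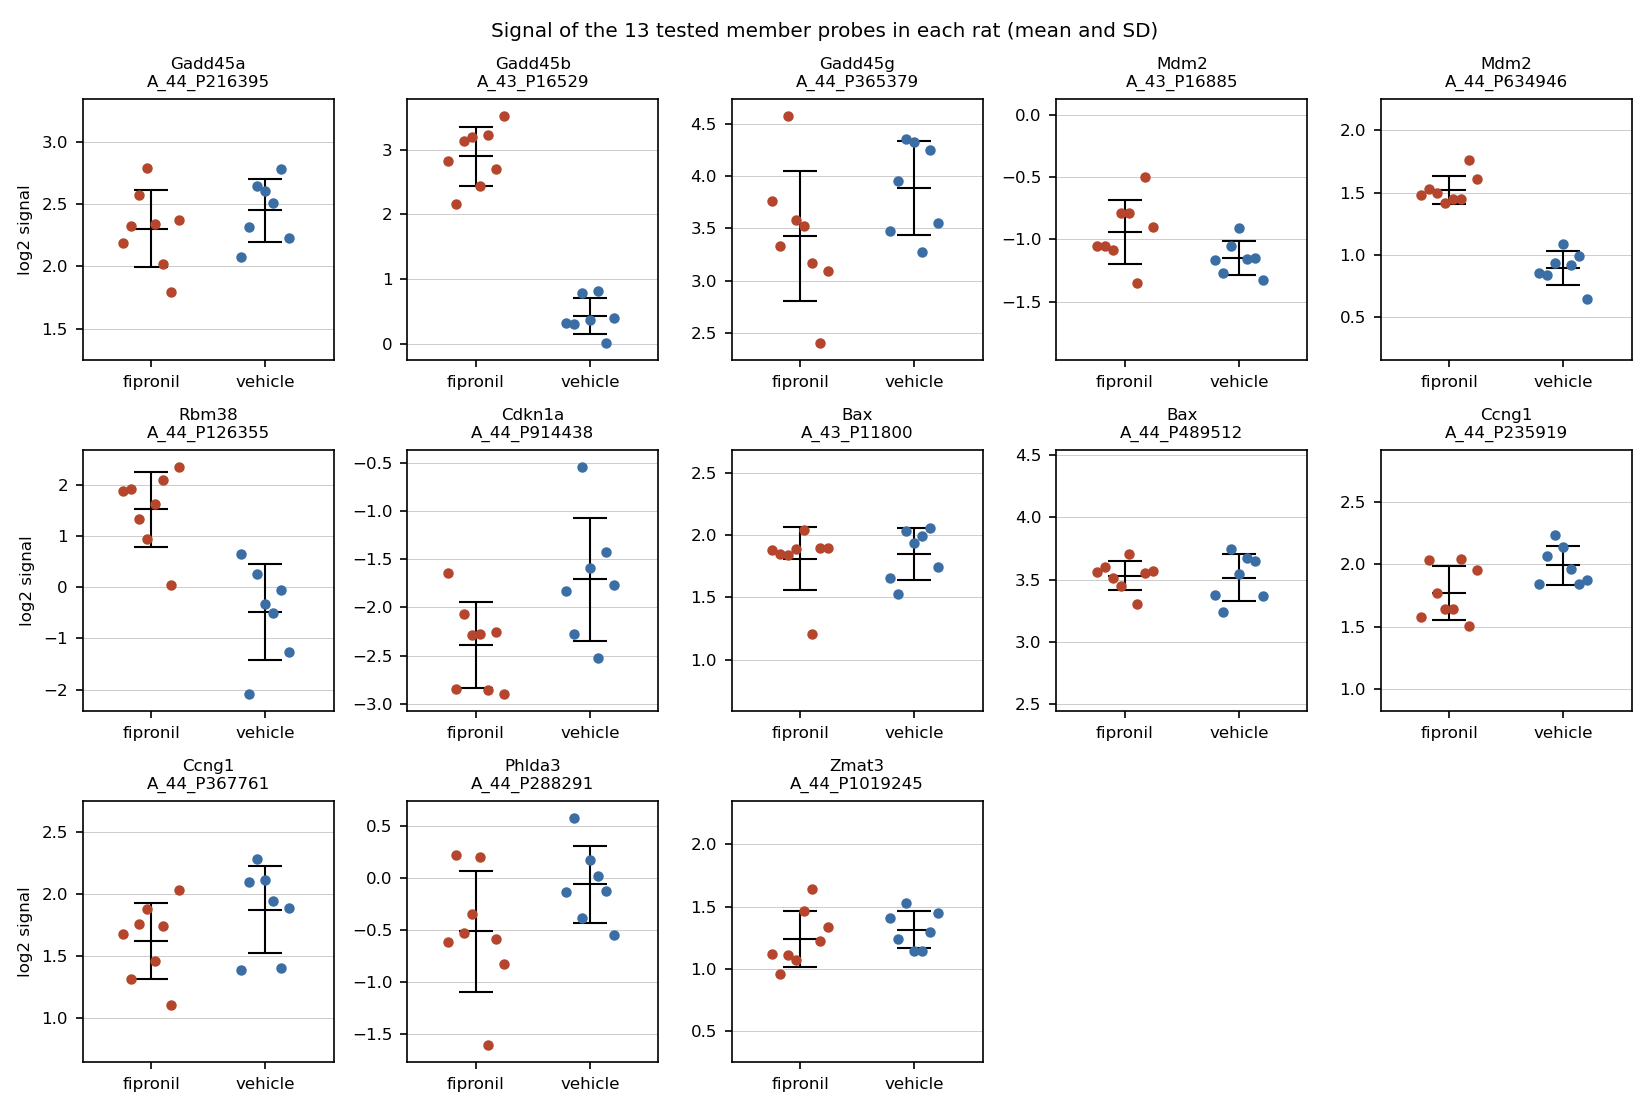
Signal (log2 intensity relative to the array's 75th percentile, vertical axes of each panel's own scale) of the 13 tested member probes, with a point per rat, fipronil (red, n = 8) left of vehicle (blue, n = 7), and a bar for the mean and SD. Gadd45b and Mdm2 probe A_44_P634946 are the panels in which the groups do not overlap, and Rbm38 is separated except for 1 fipronil rat and 2 vehicle rats.

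Mdm2, the ubiquitin ligase that p53 induces and that marks p53 for degradation, had a large difference on one probe and a smaller one on the other, a contrast between probes that was not tested. Probe A_44_P634946 (rn4 chr7:56996880-56996939, minus strand) had a signal of 1.42, 1.49 and 1.76 in fipronil rats, against 0.64, 0.92 and 1.09 in vehicle rats. Here too the groups did not overlap, and both were narrow, with an SD of 0.11 in fipronil rats and 0.14 in vehicle rats. The difference was 0.63 (SE 0.079, interval 0.46 to 0.80), or 1.55-fold, and 0.45 to 0.87 within the 4 slides. Probe A_43_P16885 (rn4 chr7:57005501-57005835, an annotated span of 335 bases) had a signal of −1.35, −0.97 and −0.50 in fipronil rats, against −1.33, −1.16 and −0.91 in vehicle rats. These groups overlapped, and its difference of 0.21 (SE 0.11) had an interval of −0.026 to 0.44. With the group means subtracted, the values of the Mdm2 probes had Pearson r = 0.65 over the 15 rats (permutation p = 0.00627, adjusted p = 0.163 over 78 pairs of member probes) and Spearman rho = 0.55 (permutation p = 0.0431, adjusted p = 0.314). Without the 2 rats farthest from the median on probe A_43_P16885, r was 0.50.

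Rbm38, an RNA-binding protein that p53 induces and that acts on the message of Cdkn1a, was named Rnpc1_predicted on the array. Its probe A_44_P126355 (rn4 chr3:163885855-163886439, plus strand, an annotated span of 585 bases) had a signal of 0.047, 1.75 and 2.35 in fipronil rats, against −2.08, −0.33 and 0.64 in vehicle rats. Fipronil replicate 7 was the low one, below 2 of the 7 vehicle rats, while the other 7 fipronil rats lay above all vehicle rats. The difference was 2.00 (SE 0.39, interval 1.18 to 2.83), or 4.01-fold with an interval of 2.26-fold to 7.11-fold, and 1.18 to 2.62 within the 4 slides. The spread between rats was wide, with an SD of 0.74 in fipronil rats and 0.93 in vehicle rats.

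Of the 13 tested member probes, 3 passed an adjusted p under 0.05 as higher in fipronil rats (Gadd45b, Mdm2 probe A_44_P634946 and Rbm38) and 0 as lower, by limma with Benjamini-Hochberg adjustment over all probes. Over all tested probes, 0.821% passed, 0.533% as higher and 0.288% as lower. Groups did not overlap, with fipronil higher, for 2 member probes, against 0.371% of all probes measured on every array, and with fipronil lower for 0 member probes, against 0.22%. Nothing is read from these counts, since the genes were selected on the same contrast. The median difference of the 13 probes was −0.074, against −0.020 over all tested probes.

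Of the 3 member calls, that of Rbm38 was kept under 20 of its 28 alternatives. It was lost without fipronil replicate 8 (difference 1.89), without vehicle replicate 7 (1.87) and without any 1 of the 4 slides (1.78 to 2.31). It was also lost when the brightness of the array entered the fit as a covariate (1.51) and when every non-control probe was tested, dim ones included (2.00). Fits without a rat or slide hold fewer arrays. Over all probes, 106 were called without fipronil replicate 8, 106 without vehicle replicate 7 and 37 to 199 without a slide, against 191 in the setting of the text. Why the Rbm38 call was lost was not tested. Gadd45b and the higher Mdm2 probe were called under all 28 alternatives, at 2.12 to 2.58 and at 0.54 to 0.70.

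**Figure D2:**
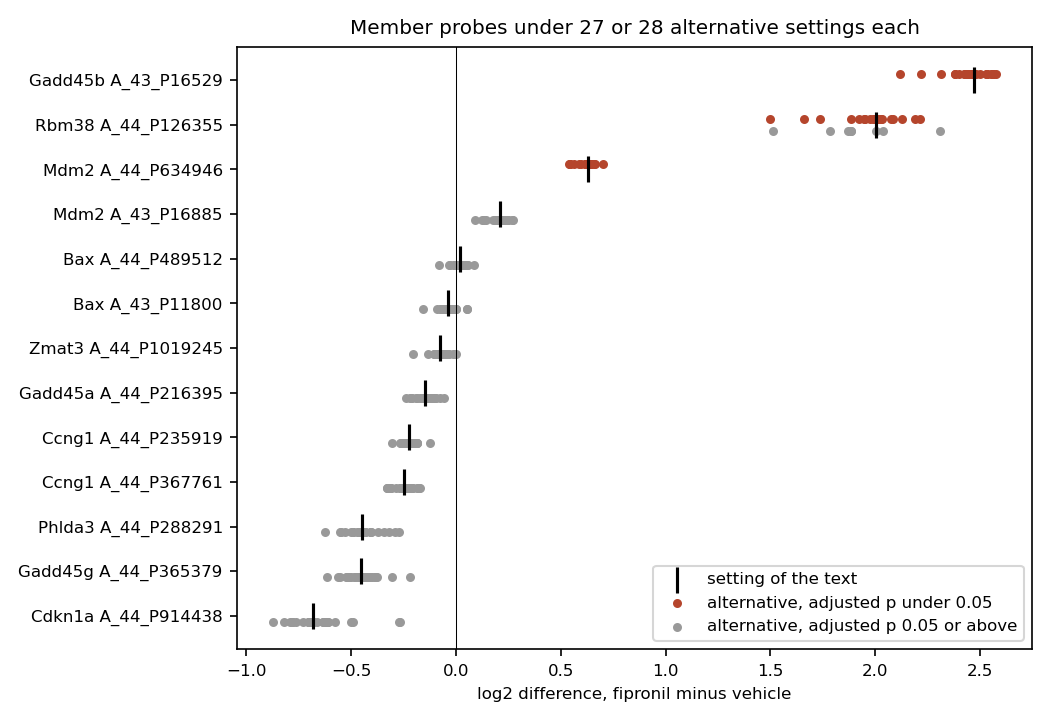
Difference between fipronil and vehicle (log2, horizontal axis) of each member probe in the setting of the text (black bar) and under its 27 or 28 alternatives (points, red where the adjusted p was under 0.05). Rbm38 is the probe with points of both colours, between 1.5 and 2.31.

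Cdkn1a, the p21 inhibitor of cyclin-dependent kinases, had a lower mean in fipronil rats than in vehicle rats. Probe A_44_P914438 (rn4 chr20:7386596-7386655, plus strand, printed 10 times on each array) had a signal of −2.90, −2.28 and −1.64 in fipronil rats, against −2.53, −1.76 and −0.54 in vehicle rats. The groups overlapped, with 3 fipronil rats below all vehicle rats and 3 vehicle rats above all fipronil rats. The difference was −0.68 (SE 0.26, interval −1.23 to −0.14) and did not pass the adjusted threshold. It came to −0.27 both in the value table deposited by the authors and with normexp background correction and quantile normalization, and the cause was not tested. The repeated spots of the probe differed within an array by a median SD of 0.13, and its SD between rats was 0.45 in fipronil rats and 0.64 in vehicle rats. The first of these covers spot noise only, not labelling or hybridization.

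Ccng1, the atypical cyclin G1 that brings a phosphatase to Mdm2, had probes of like difference. Probe A_44_P235919 (rn4 chr10:25776868-25776927, minus strand) had a signal of 1.5, 1.70 and 2.04 in fipronil rats, against 1.84, 1.96 and 2.23 in vehicle rats. Of the fipronil rats, 5 lay below all vehicle rats and the other 3 lay among them. The difference was −0.22 (SE 0.10, interval −0.44 to −0.0071), and it was −0.25 (SE 0.16, interval −0.59 to 0.089) on probe A_44_P367761 (rn4 chr10:25778638-25778912). Neither passed the adjusted threshold.

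Bax, the pore-forming promoter of apoptosis, had the values closest to no difference. Probe A_44_P489512 (rn4 chr1:95932941-95933000, minus strand) had a signal of 3.31, 3.56 and 3.71 in fipronil rats, against 3.24, 3.55 and 3.74 in vehicle rats. The groups covered the same range, and the difference of 0.017 (SE 0.089) had an interval of −0.17 to 0.21. Probe A_43_P11800, with 10 spots per array and no coordinate in the files, differed by −0.037 (SE 0.12, interval −0.29 to 0.22), and its repeated spots had a median SD of 0.046 within an array.

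Phlda3, a pleckstrin homology protein that restrains Akt, had a signal of −1.60, −0.56 and 0.22 in fipronil rats, against −0.55, −0.12 and 0.57 in vehicle rats, on probe A_44_P288291 (rn4 chr13:48790295-48790354, plus strand). The fipronil rats were widely spread (SD 0.58), 4 of them lay below all vehicle rats, and the difference of −0.45 (SE 0.23) had an interval of −0.95 to 0.049. Zmat3, a zinc finger RNA-binding protein listed on the array as Wig1, had a signal of 0.96, 1.17 and 1.64 in fipronil rats, against 1.14, 1.29 and 1.53 in vehicle rats, on probe A_44_P1019245 (rn4 chr2:118537633-118537692, plus strand). Its groups overlapped, and the difference of −0.074 (SE 0.10) had an interval of −0.30 to 0.15. None of the probes of Gadd45a, Gadd45g, Cdkn1a, Ccng1, Bax, Phlda3 and Zmat3 was called under any of the 27 or 28 alternatives run for it.

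**Figure D3:**
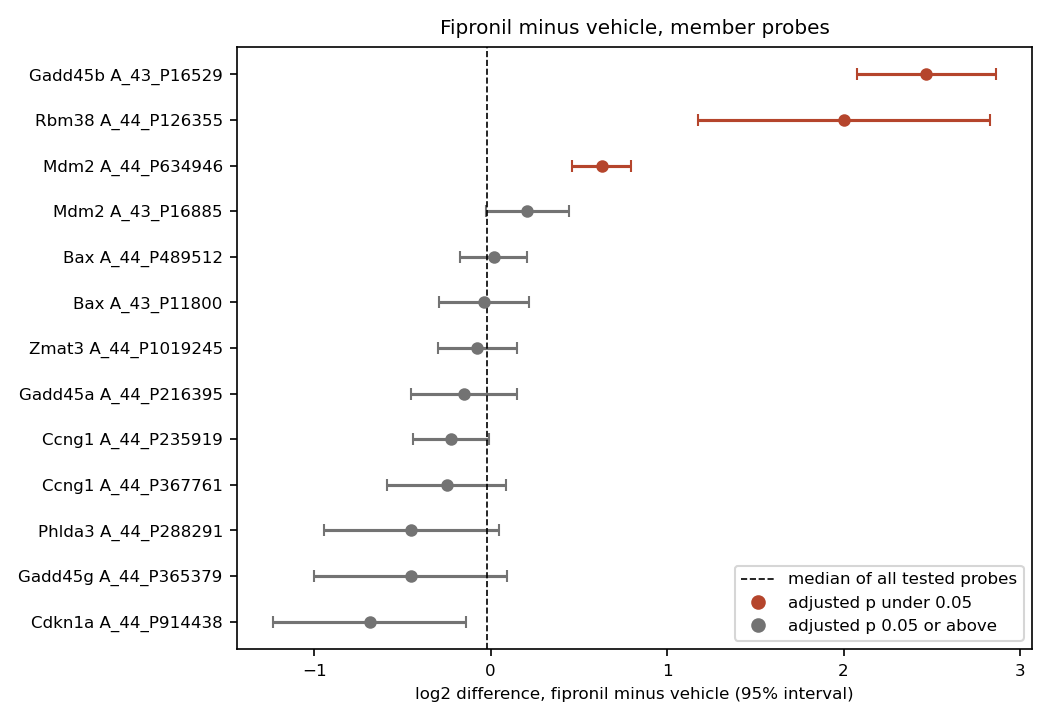
Difference between fipronil and vehicle (log2, horizontal axis) with its 95% interval for the 13 tested member probes, red where the adjusted p was under 0.05. The dashed line is the median of all tested probes, −0.020, and 10 of the 13 probes are grey, from −0.68 for Cdkn1a to 0.21 for the second Mdm2 probe.

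Correlation between members was taken over both groups together, with group means subtracted. Over the 75 pairs of probes of different genes, r ranged from −0.61 to 0.72 with a median of 0.10 (n = 15 rats, which share array and normalization). Such an r can hide opposite values within the groups, which were not tested. Gadd45a with Mdm2 probe A_44_P634946, for example, had r = 0.00049 in all, −0.61 within fipronil rats and 0.71 within vehicle rats. Among all 78 pairs, the one that passed adjustment was the pair of Bax probes (r = 0.87, permutation p = 5.0e-05, adjusted p = 0.0039, 100000 resamples, two-sided, and rho = 0.88, permutation p = 0.00027, adjusted p = 0.0211). Without the 2 rats farthest from the median on probe A_43_P11800, that pair had r = 0.88. With 15 rats and 78 pairs, a pair that did not pass is not thereby shown to be unrelated. The pair of Ccng1 probes, of a single gene, did not pass (r = 0.54, permutation p = 0.0439, adjusted p = 0.378). It had rho = 0.60 (permutation p = 0.0254, adjusted p = 0.283), and r = 0.79 without the 2 rats farthest on probe A_44_P235919. The highest r between genes was that of Gadd45b with Ccng1 probe A_44_P367761, at 0.72 (permutation p = 0.00253, adjusted p = 0.0987). Its rho was 0.72 (permutation p = 0.00491, adjusted p = 0.128), and r was 0.67 without the 2 rats farthest from the median on Gadd45b. The other Ccng1 probe had r = 0.25 with Gadd45b. Gadd45a and Gadd45g had r = 0.68 (permutation p = 0.00966, adjusted p = 0.188) and rho = 0.69 (permutation p = 0.00809, adjusted p = 0.158). Without the 2 rats farthest from the median on Gadd45a, their r was 0.64. Gadd45b had r = 0.17 with Gadd45a and 0.01 with Gadd45g. The permutations ran within each group and took no account of slide, whose part in these r was not tested. By a limma F test with group in the model, 497 of the 23256 tested probes (2.14%) were called for slide.

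**Figure D4:**
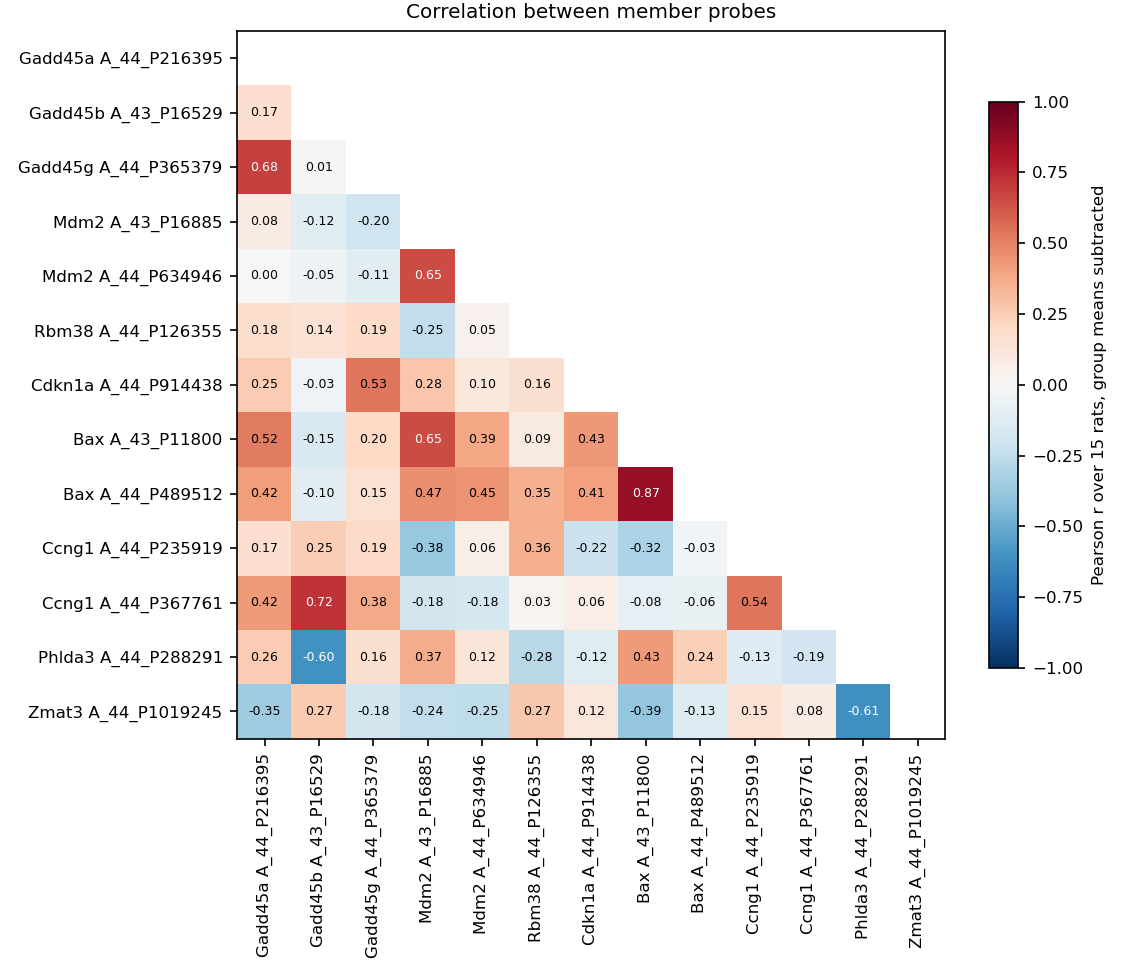
Pearson r between the 13 tested member probes over 15 rats after each group's mean was subtracted (colour and number, from −1 in blue to 1 in red). The highest values join the probes of Bax (0.87), Gadd45b with one Ccng1 probe (0.72) and Gadd45a with Gadd45g (0.68).

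The named genes whose signal ran most like that of each Gadd45 gene across the rats, group means subtracted, were different for each. For Gadd45a they were Exosc4 (r = 0.89), Nmnat1 (0.83), Cracr2b (0.83), Dhodh (0.83) and Txndc12 (0.82). For Gadd45b they were Procr (0.79), Uox (0.78), Iqcf6 (0.77), Esd (0.77) and Rpl5 (0.77), whose own differences between the groups lay between −0.26 and 0.25. For Gadd45g they were Tcea3 (0.88), Cgn (0.86), Ccdc97 (0.85), Dmap1 (0.85) and Mrgbp (0.85). These are the top values among many genes in 15 rats and are given as a description.

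No tested probe of the other p53 targets was called. Of 38 such genes, 26 with 31 probes were tested and 12 were not. By limma 0 probes passed in either direction, against 3 higher and 2 lower at an unadjusted p under 0.05. Their median difference was 0.0073. Over all 23256 tested probes, 0.821% passed, and 6.52% were higher and 10.7% lower at the unadjusted threshold. At that share a list of this length would mostly hold no call. Nothing is therefore read from 0 calls here or in the regulator, partner and stress lists below. The smallest p was that of Plk3, a polo-like kinase, whose signal was −0.49 ± 0.34 in fipronil rats (SD, n = 8) and −1.19 ± 0.34 in vehicle rats (SD, n = 7), a difference of 0.70 (SE 0.17, limma adjusted p = 0.0619). Plk3 lay above the vehicle mean in 8 of 8 fipronil rats on that probe, whereas its second probe differed by 0.24 (SE 0.34). The first probe passed without fipronil replicate 1 (adjusted p = 0.0491) and without vehicle replicate 4 (adjusted p = 0.04996). Tp53i11 (−0.42, SE 0.17) and Tp53inp1 (0.26, SE 0.12), both p53-inducible genes, came next with limma adjusted p of 0.212 and 0.259.

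Regulators of p53 function, 14 genes with 22 tested probes, also had 0 calls by limma in either direction, against 1 higher and 1 lower at an unadjusted p under 0.05. The smallest p belonged to Ppp1r13b, a p53-binding ASPP protein (−0.28, SE 0.089, limma adjusted p = 0.138), Ep300, a histone acetyltransferase (0.37, SE 0.17, adjusted p = 0.270), and Mdm4, the partner of Mdm2 (0.24, SE 0.14, adjusted p = 0.405). The Ep300 probe was well above background in 8 of 8 fipronil rats but in 3 of 7 vehicle rats. The second Ep300 probe differed by −0.0010 (SE 0.088), and the median of the list was 0.0040.

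The partners of Gadd45 and the MAP kinases downstream of it, 20 genes with 32 tested probes, had 0 calls by limma and a median of 0.082. At an unadjusted p under 0.05, 3 probes were higher and 3 lower. Among the 3 higher was a Ccnb1 probe well above background on 8 fipronil but 3 vehicle arrays. That probe passed the filter on dim probes mainly through the fipronil rats, so nothing is read from its direction. Pcna, the replication clamp, differed by 0.39 (SE 0.095, limma adjusted p = 0.0686) and Cdk1 by 1.26 (SE 0.33, adjusted p = 0.0807), each above the vehicle mean in 8 of 8 fipronil rats. The second Pcna probe differed by 0.17 (SE 0.086). Without vehicle replicate 3, the difference of the first Pcna probe was 0.43 and passed (limma adjusted p = 0.0404). Mapk14, the p38 kinase, differed by −0.36 (SE 0.11, adjusted p = 0.132) on its leading probe, below the vehicle mean in 8 of 8 fipronil rats. Its other probes differed by −0.33 (SE 0.12) and 0.13 (SE 0.21). The probes of Nr1i3, which encodes CAR, differed by 0.013 (SE 0.19) and 0.052 (SE 0.24).

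Among stress and immediate early genes, 25 genes with 30 tested probes, limma gave 0 calls, against 0 higher and 1 lower at an unadjusted p under 0.05, and the median was −0.016. Fosb, an AP-1 subunit, differed by −0.35 (SE 0.14, limma adjusted p = 0.227), Ddit4, a stress-induced inhibitor of mTOR, by 0.18 (SE 0.088, adjusted p = 0.296) and Jund, another AP-1 subunit, by −0.21 (SE 0.10, adjusted p = 0.318).

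The cell cycle list, 29 genes with 39 tested probes, had 1 call, higher, and 13 higher against 3 lower at an unadjusted p under 0.05, with a median of 0.10. Over all 23256 tested probes, 6.52% were higher and 10.7% lower at that unadjusted threshold. Of the 39 probes, 29 were well above background on all arrays, and these had 7 higher and 3 lower with a median of 0.084. The other 10, close to background in some rats, had 6 higher and 0 lower. These 6 were well above background on more fipronil than vehicle arrays. The counts were 7 and 0 for Rrm2, 8 and 1 for Ccnb2, and 6 and 1 for Bub1b. For Top2a they were 8 and 2, for Rrm1 6 and 2, and for Ccnb1 8 and 3. All 6 are among the 13 higher. They passed the filter on dim probes mainly through the fipronil rats, so nothing is read from their direction. The call was probe A_44_P992578 of Rrm2, a subunit of ribonucleotide reductase, which was well above background in 7 of the 8 fipronil rats but in 0 of the 7 vehicle rats, so that it passed the filter on dim probes through the fipronil rats alone. Its mean signal was −3.48 in fipronil rats and −4.72 in vehicle rats, a fitted difference of 1.24 (SE 0.26, limma adjusted p = 0.0366) against vehicle values not above background. Each vehicle rat was then given the faintest signal that any probe well above background had on its array, unless Rrm2 itself read higher. With these values the mean of the fipronil rats was 1.22-fold higher, a figure with no test of its own. The fipronil rat that was not well above background kept its measured value, so this figure is not a strict bound. The second Rrm2 probe differed by −0.069 (SE 0.25), and the call was kept under 7 of the 26 alternatives that tested the probe. Leaving out fipronil replicate 1, 3, 4 or 7 or vehicle replicate 1, 2, 4, 5 or 7 ended it (adjusted p up to 0.370 over the alternatives). Ccnb2, a mitotic cyclin, had a mean signal of −3.02 in fipronil rats and −4.19 in vehicle rats (limma adjusted p = 0.0524), but only 1 of the 7 vehicle arrays was well above background for it. Tyms, thymidylate synthase, differed by 0.68 (SE 0.16, adjusted p = 0.0549). Tyms passed under 6 alternatives and Ccnb2 under 3, while a Ccne1 probe, of a G1 cyclin, passed as lower (−0.94, limma adjusted p = 0.0452) without slide 2. Pcna, Cdk1 and Ccnb1 belong to this list as well as to that of the Gadd45 partners and MAP kinases.

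**Figure D5:**
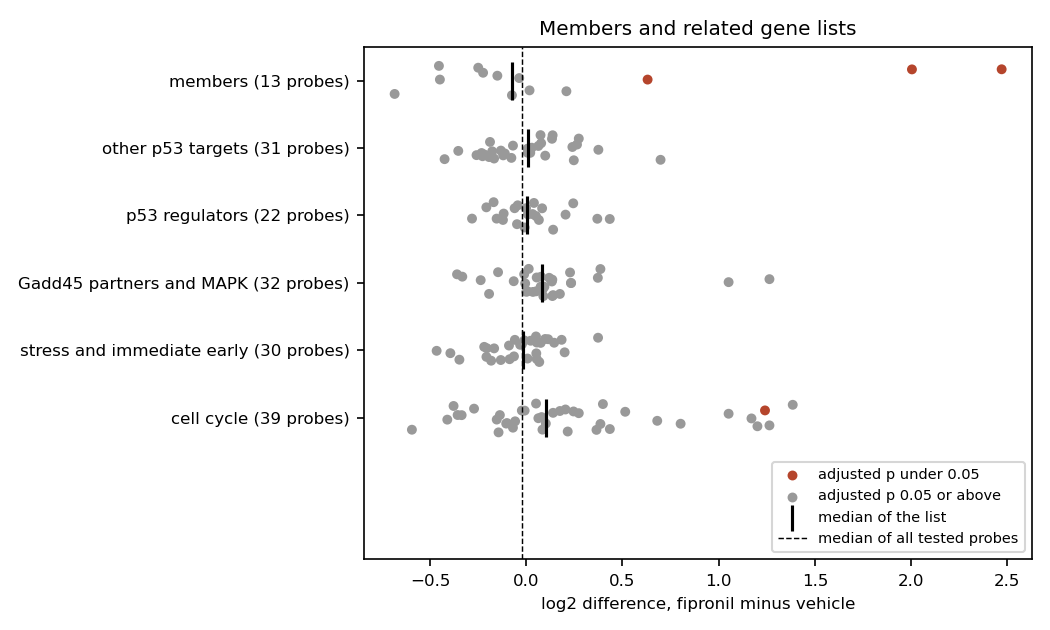
Difference between fipronil and vehicle (log2, horizontal axis) of every tested probe of the members and 5 related lists, a point per probe, red where the adjusted p was under 0.05. The bar is the median of each list, from −0.074 for the members to 0.10 for the cell cycle, and the dashed line is the median of all tested probes.

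Array brightness differed between the groups. With brightness as a covariate, Rbm38 differed by 1.51 and lost its call. Mdm2 probe A_44_P634946 differed by 0.54 and kept its call, as did Gadd45b. Since brightness went with the group, that fit does not fully separate the 2. Any further part of brightness in the member values was not tested. The 75th percentile of intensity was 209.9 ± 25.8 on fipronil arrays (SD, n = 8) and 171.5 ± 33.3 on vehicle arrays (SD, n = 7; exact permutation p = 0.0196, two-sided, adjusted p = 0.0233 over 2 measures), and without vehicle replicate 7 the p was 0.0523. The share of probes well above background was 57.0 ± 1.25% on fipronil arrays and 54.9 ± 2.15% on vehicle arrays (SD, exact permutation p = 0.0233, two-sided). With group means subtracted, that brightness had r = 0.55 with Mdm2 probe A_44_P634946, 0.45 with Rbm38 and −0.20 with Gadd45b, as a description over 15 arrays. Both groups were on each of the 4 slides. The liver was recognisable by its hepatocyte markers, all 14 probes of which were tested, with 0 calls by limma and a median of −0.19, and with 0 higher and 6 lower at an unadjusted p under 0.05. All 6 were among the 7 probes saturated on some arrays, which limits their values: 5 probes of Alb, Ttr and Serpina1 on all 15 arrays, 1 of Apob on 13 and that of Apoa1 on 11. The 7 probes saturated on no array had a median of −0.020 and 0 probes past the unadjusted threshold. Endothelial markers, 7 probes, had 0 calls by limma and a median of 0.29, with 3 higher and 0 lower at an unadjusted p under 0.05. Their summed levels, in units of the 75th percentile and with the brightest probe of each gene, were 68.1 to 129.4 in fipronil rats and 57.4 to 78.2 in vehicle rats. Kdr made up most of that sum, with a signal of 5.87 to 6.89 in fipronil rats and 5.70 to 6.13 in vehicle rats. Kdr, Stab2 and the Lyve1 probes differed by 0.29 to 0.52, Vwf by −0.24 (SE 0.14), and the Cdh5 probes by −0.081 (SE 0.15) and 0.15 (SE 0.14). The part of these markers in the member values was not tested. Macrophage, stellate, cholangiocyte, lymphocyte, neutrophil and erythroid markers had 0 calls each by limma. At an unadjusted p under 0.05, 3 of their probes passed, all as higher: 2 of Reln, a stellate marker, and that of Epcam, a cholangiocyte marker. Beside all these marker counts, 6.52% of the 23256 tested probes were higher and 10.7% lower at that threshold.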

How the data were processed

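Liver RNA of 15 rats was hybridised to one-colour Agilent arrays, 1 per rat. The deposited array files hold spot intensity values from Agilent Feature Extraction, background subtracted and detrended, with no scaling across arrays, per the file headers. The deposited value table holds log2 values that the authors made with limma and Feature Extraction 9.5, per the submitters' processing notes and was used as an alternative. Its 22244 probes all matched the arrays, column medians lay between 7.651 and 7.661, and Spearman's rho over probes was at least 0.9989 with mean spot intensity, so it was read as quantile-normalized log2 intensity with background left in; how its probes were chosen is not given in the sources used here. Control and outlier spots were left out, spots of a probe averaged, and log2 processed intensity taken minus the array's 75th percentile. Probes missing on more than 3 arrays were dropped (23). Groups were compared probe by probe with limma 3.58.1 (R 4.3.3), two-sided, Benjamini-Hochberg adjusted over 23256 probes; the number of arrays limits the precision. Names come from the files and RefSeq (GRCr8). Coordinates are rn4, per the file headers. The fit was tested on simulated data. One gene of the list of p53 regulators is not reported here.

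The members and all gene lists were chosen with earlier results of these data known. Named in each pathway list were genes past the threshold or, where fewer than 3 passed, the 3 of smallest p. Likeness to each Gadd45 gene was ranked by r after group means were subtracted. Tests of pairs of members, and the values of Nr1i3 and of second probes, were added after the data were seen. Alternatives were other background corrections and normalizations, the deposited table, filters, slide, brightness and replicate terms, and leaving out each slide or rat.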

Additional observations from a re-analysis of the deposited data

Results flagged for a closer look

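In 30 groups of arrays (13 member probes and 2 array measures, each in both groups), 3 had 1 array set apart from the rest by more than a gap test at the 95% level allows, and chance alone gives about 1 in 20 such groups. On Bax probe A_43_P11800, fipronil replicate 6 had a signal of 1.20, against a median of 1.88 over the fipronil rats. The 75th percentile of intensity was 269.5 on the array of fipronil replicate 2. Probes well above background made up 50.7% on the array of vehicle replicate 7.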

How the results depend on the processing

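Across 28 alternatives, 2 or 3 member probes were called and the member median lay between −0.16 and −0.016. Gadd45b and Mdm2 probe A_44_P634946 were called in all 28 and Rbm38 in 20. With a replicate block over replicates 1 to 7, 3 member probes were called, at 2.38 for Gadd45b, 0.62 for that Mdm2 probe and 1.89 for Rbm38, and 97 probes in all in place of 191. Same-numbered rats had r over 0.1 in 3 of 7 pairs, and 3 of 7 matched their own number best. Most same-numbered rats also shared a slide, so this check could not decide whether the numbers pair the rats. Over all probes, 42 were called with brightness as a covariate, 37 without slide 1, 45 without slide 4, 90 with no filter on dim probes, and 104 to 307 without single rats. In the cell cycle list, 1 probe was called in the setting of the text, 3 after quantile normalization of the processed signal, and 0 with normexp, the deposited table, no filter, slide as a block, brightness as a covariate, 1 probe per gene or without slide 1; the cause was not tested. Without single rats, cell cycle calls ranged from 0 to 3, calls among other p53 targets and among Gadd45 partners from 0 to 1, and the brightness difference from 29.1 to 45.6. Stress genes and p53 regulators kept 0 calls in all 28. Dim probes, such as Rrm2, are limited by their closeness to background.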
